A study of Mus musculus with 3 samples.

Results

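Chemokine ligands, the small secreted proteins that guide leukocytes, were followed in single cells of the mouse glomerulus. The members were the rows of the gene table whose symbol was Ccl, Cxcl, Cx3cl or Xcl followed by digits, with Cxcl12 left out, which gave 43 of 31058 rows and 38 distinct symbols. There was 1 droplet library a group (n = 1), from glomerular cells of a male, a female ERaKO and a female mouse, with 3′ tags counted by molecular identifiers (UMIs). All 3 were healthy C57Bl/6 mice with the alleles Pax2.rtTA, R26.Confetti and TetO.Cre, and the female ERaKO mouse also carried ERalphaKO and is titled RPC-ERαKO. In this system doxycycline switches on Cre in cells that express Pax2; it was given at 20 days of age and tracing ended at 90 days. The study set male against female glomeruli and female ERaKO against female glomeruli, so both comparisons share the female library. With 1 mouse a group there is no spread between animals to set a difference against, no p-value was computed, and every interval below is a 95% interval that covers counting error only. Log2 ratios are of CPM plus 1, and their intervals are of the CPM ratio itself; at least 2-fold is used as the threshold throughout.

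Chemokines act on G protein-coupled receptors of leukocytes and are grouped by the spacing of their first cysteines into the CC, CXC, CX3C and XC families. Some are made at rest by a given cell type, while others, such as the neutrophil attractants Cxcl1 and Cxcl2, the monocyte attractants Ccl2 and Ccl7 and the T cell attractant Cxcl10, are switched on by cytokines and injury through NF-kB and interferon signals. In the kidney they are best known for bringing monocytes, neutrophils and T cells into inflamed glomeruli and tubules.

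Filtering left 3224 male, 2520 female ERaKO and 2828 female cells, whose median depth was 7323.5, 8119 and 8831.5 UMIs. Barcodes over 25% mitochondrial UMIs made up 17.7% to 34.0% of a library, most in the female ERaKO one. Pairs of libraries shared 1 to 4 cell barcodes among the kept cells. Xist stood at 0.586, 1457 and 1612 CPM in podocytes of the male, female ERaKO and female libraries. Esr1, the gene named by the knockout, had 4, 4 and 3 UMIs in 1308 male, 905 female ERaKO and 1519 female podocytes, and in smooth muscle and renin cells it had 40, 25 and 25 UMIs, or 22.2, 14.7 and 20.6 CPM. These counts do not check the knockout: the deleted exons are not given in the sources used here, and a 3′ tag may lie outside them. CPM are UMIs per 1000000 UMIs summed over a class of cells in a library, and a class name stands for cells that carry the markers of that type.

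Of the 43 rows, 12 had no UMI in any deposited barcode, 31 had a UMI in kept cells and 19 had at least 100. These 19 are described below. Another 3 rows had 20 to 99 UMIs (Cxcl14 with 79, Ccl12 with 27 and Ccl22 with 20), and 9 rows had 1 to 9. The members together held 8859 UMIs in male, 12062 in female ERaKO and 9328 in female kept cells. By position on GRCm38, 12 rows lay on chromosome 11, 10 on chromosome 5, 5 on chromosome 4 and 4 on chromosome 8. The Ccl19, Ccl21 and Ccl27 rows have near-identical copies on chromosome 4 and on unplaced scaffolds, so their counts are uncertain. Cxcl10, Cxcl16, Ccl2, Ccl25 and Ccl27a overlap genes on the other strand (Art3, Zmynd15, Gm17268, Elavl1 and Il11ra1), and whether counting used strand is not given in the sources used here.

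Several ligands of the epithelial cells described next were often seen in the same cells. For that reason the 200 bases before the RefSeq start are shown for Cxcl1, Cxcl2 and Cxcl10, which have known NF-kB control. RefSeq windows of 250 bases before to 50 after the start (GRCm38.p6) matched 26 of the 38 symbols. There was no window for Cxcl16, Ccl2 or Ccl7, so these could not be searched. Capitals mark matches to the NF-kB consensus on either strand, where a match and its reverse may overlap by shifting 1 base. The stretch printed is chr5:90891045-90891244 on the plus strand for Cxcl1, chr5:90903699-90903898 on the plus strand for Cxcl2 and chr5:92348890-92349089 on the minus strand for Cxcl10.
Cxcl1: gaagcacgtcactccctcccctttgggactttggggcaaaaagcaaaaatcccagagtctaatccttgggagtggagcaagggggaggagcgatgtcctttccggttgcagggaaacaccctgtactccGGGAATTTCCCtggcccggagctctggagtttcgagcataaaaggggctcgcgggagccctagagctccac
Cxcl2: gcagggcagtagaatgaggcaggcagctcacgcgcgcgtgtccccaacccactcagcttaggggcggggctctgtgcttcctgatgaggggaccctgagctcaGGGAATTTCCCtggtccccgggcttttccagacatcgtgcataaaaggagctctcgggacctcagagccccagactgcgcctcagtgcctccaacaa
Cxcl10: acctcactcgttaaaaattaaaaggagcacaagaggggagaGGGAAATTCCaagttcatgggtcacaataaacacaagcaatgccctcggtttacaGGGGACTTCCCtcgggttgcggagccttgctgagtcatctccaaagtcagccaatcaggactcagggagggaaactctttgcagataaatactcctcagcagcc
The match began at -71 in Cxcl1 and at -97 in Cxcl2, with the same letters in both, and at -159 and -104 in Cxcl10. The consensus was found in 8 of the 32 windows of members and in 8.46% of 32851 windows of all genes. The AP-1 element TGANTCA, searched on both strands, was found in 7 of the members' windows, among them that of Cxcl10, and in 7.81% of all windows. A match is a description of the letters and not a site of binding.

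Each ligand had a source class, the single class that held the largest share of its UMIs over the 3 libraries. Mononuclear phagocytes were the source of 7 of the 19 (Cxcl2, Ccl4, Ccl6, Ccl9, Ccl3, Ccl17 and Cxcl9), and a cluster of epithelial cells, cluster 10, was the source of 5 (Cxcl10, Cxcl16, Cxcl1, Ccl2 and Ccl7). The source was T and NK lymphocytes for Ccl5 and Xcl1, podocytes for Ccl27a and Ccl25, mesangial cells for Cxcl13, endothelial cells for Cx3cl1 and proximal tubule cells for Ccl28; it held 34.8% of Ccl25 and 48.6% of Cx3cl1. The source was the same class in all 3 libraries for 13 of the 19. It differed between libraries for Cxcl10, Ccl2, Cxcl2, Ccl7, Ccl17 and Cxcl9. For Ccl2 it was phagocytes in the male (64.9%), cluster 10 in the female ERaKO (86.6%) and parietal cells in the female library (52.0%). Ccl7 had cluster 10 in the female ERaKO (69.6%) and parietal cells in the male (40.0% of 5 UMIs) and female library (40.4%). Male phagocytes held 72 Ccl2 UMIs, or 109 CPM. The source over the 3 libraries was also the class of the highest CPM for 16. The exceptions were Ccl27a (parietal cells), Ccl25 (distal tubule) and Ccl7 (fibroblasts). Only the male library had at least 30 distal tubule cells (36) and entered that level. For Ccl7, 1 female ERaKO fibroblast held 27 of the 28 UMIs of its class in that library. The chemokine genes were left out of the clustering.

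**Figure D1:**
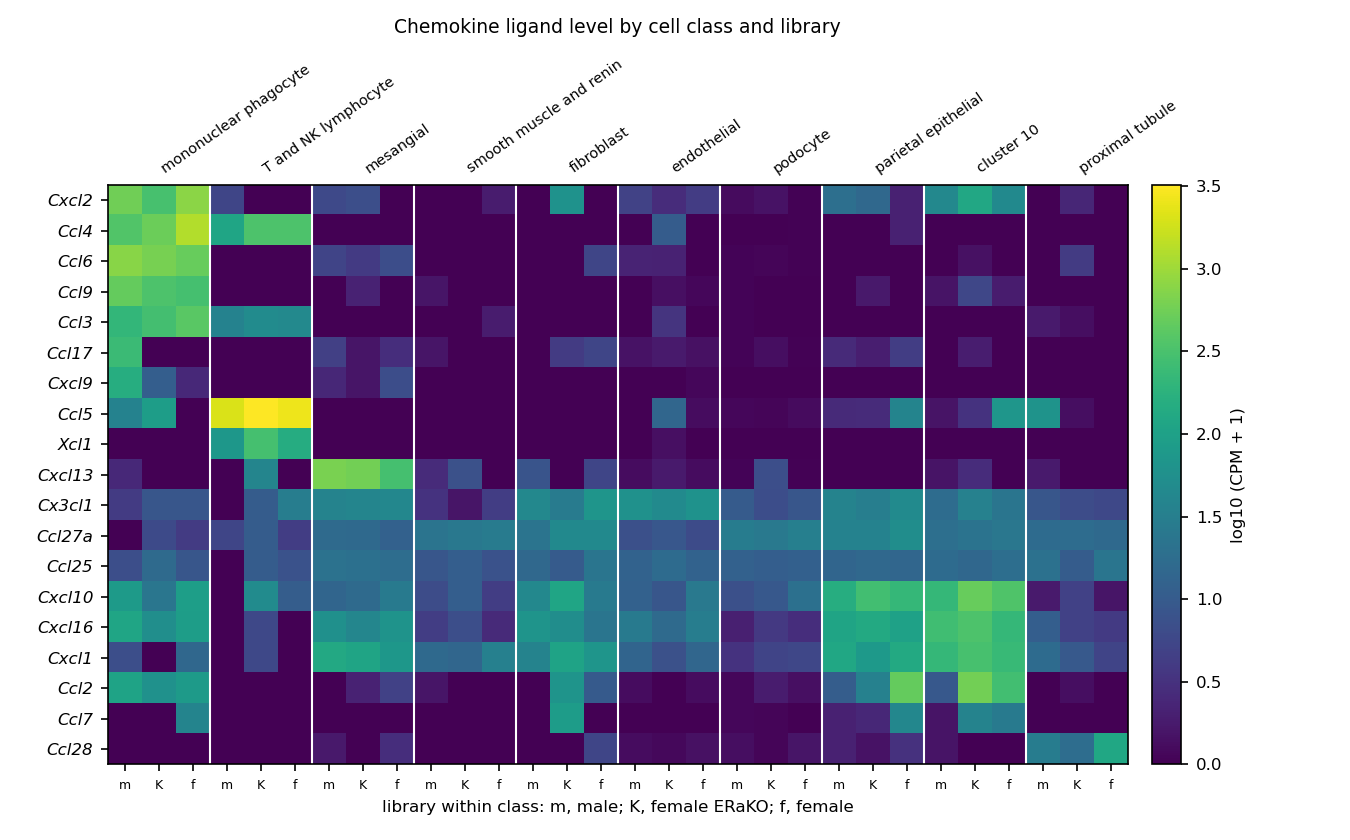
Level of the 19 ligands with at least 100 UMIs (rows) in 10 classes (columns), as log10 of CPM plus 1, with the male, female ERaKO and female libraries side by side in each class. Ccl6 and Ccl9 stand out in phagocytes, Cxcl13 in mesangial cells and Ccl28 in proximal tubule, while Ccl27a and Ccl25 are spread over most classes.

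Cluster 10 held 79 male, 99 female ERaKO and 42 female cells and carried markers of 2 epithelia. Its proximal tubule score (0.99) and its parietal score (0.96) were too close for a name, and its leading genes held Slc5a2 and Slc5a12 of the proximal tubule beside Vcam1 of parietal cells. Its cells were 2.30 times as deep as their library's median, and the part of joined cells in its markers was not tested beyond the doublet score. At a finer clustering, 162 of its 220 cells fell in a cluster named parietal epithelial. Parietal epithelial cells line Bowman's capsule. Within cluster 10, the summed level of the 6 ligands Cxcl1, Cxcl2, Cxcl10, Cxcl16, Ccl2 and Ccl7 in a cell went with its parietal markers (Pearson r over cells 0.48 in the male, 0.63 in the female ERaKO and 0.71 in the female library) and not with its proximal tubule markers (-0.14, -0.48 and -0.18). Depth is shared by these values and had r of 0.51, 0.29 and 0.29 with the ligands. The parietal list also holds Vcam1, which was among the 3 genes most like Cxcl10 over 34 class and library means (r 0.79). The part of Vcam1 in these r was not tested. Within the parietal class the r of the ligands with parietal markers was lower, at 0.16, 0.30 and 0.38, and with depth 0.34, 0.24 and 0.22.

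Several of the 6 ligands were often seen in the same cells. In female ERaKO cells of cluster 10, 45 of 50 cells with Cxcl1 also held Cxcl10, against 20 of 49 cells without Cxcl1, at median depths of 18740 and 17514 UMIs. Likewise 26 of the 50 held Cxcl2, against 1 of 49, and 13 of 14 cells with Ccl7 held Ccl2, its neighbour on chromosome 11, against 27 of 85 without. In male cells 29 of 34 with Cxcl1 held Cxcl10, against 13 of 45 without, at median depths of 32640 and 14255 UMIs. In female cells 15 of 17 did, against 7 of 25, at 28410 and 14891 UMIs, so depth differed there. Male cells did not show it for Ccl2, held by 1 of 34 cells with Cxcl1 and 2 of 45 without. With each cell thinned to 4000 UMIs, a depth that every cell of both classes reached, at least 3 of the 6 were found in 12.7% of male, 33.3% of female ERaKO and 26.2% of female cells of cluster 10, and in 40.5%, 58.6% and 47.6% before thinning. In parietal cells the thinned shares were 4.17% in the male, 9.62% in the female ERaKO and 1.37% in the female library.

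Cxcl16, a membrane-held ligand of Cxcr6, was found in more cells of cluster 10 than any other of the 6 in each library. It had 526, 730 and 259 UMIs in male, female ERaKO and female cells of cluster 10, or 270, 334 and 215 CPM. After thinning, 62.0% of male, 65.7% of female ERaKO and 57.1% of female cells there held it (87.3%, 86.9% and 81.0% before). In podocytes it stood at 1.01, 2.80 and 1.87 CPM. Cxcl1 had 425, 679 and 273 UMIs in cluster 10, or 218, 311 and 227 CPM, and male and female differed by a log2 ratio of -0.06 (-0.28 to 0.17). Cxcl10 had 416, 1083 and 422 UMIs, or 214, 496 and 351 CPM, with log2 ratios of -0.71 (-0.91 to -0.52) for male over female and 0.50 (0.34 to 0.67) for female ERaKO over female. None of these 3 ligands differed by 2-fold in cluster 10.

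Ccl2 was at least 2-fold apart in cluster 10 in both comparisons. This main attractant of Ccr2-bearing monocytes (ENSMUSG00000035385, chromosome 11, 82035571 to 82037453, plus strand, GRCm38) had 16 UMIs in male, 1257 in female ERaKO and 336 in female cells of the cluster, or 8.22, 575 and 279 CPM. It was found in 3 of 79 male, 40 of 99 female ERaKO and 12 of 42 female cells, and after thinning in 1.27% (0.0320 to 6.85), 35.4% (26.0 to 45.6) and 16.7% (6.97 to 31.4) of them. Male cells were thus low by number of cells and by level. Female ERaKO cells were higher than female ones in level, while the intervals of their shares of cells overlapped. The log2 ratio was -4.93 (-5.91 to -4.37) for male over female and 1.04 (0.87 to 1.22) for female ERaKO over female. One cell held 49.7% of the female UMIs, and without each library's top cell the ratios were -6.12 and 1.74. In the matching cluster the ratio for female ERaKO over female was 0.56 at the finer clustering and 0.77 with called doublets kept, both under 2-fold, and that for male over female was -4.21 and -4.29. Over 34 class and library means, the genes most like Ccl2 in pattern were Rtn1 (Pearson r 0.82), C3 (0.81) and Cxcl10 (0.81).

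The cells of cluster 10 also differed between libraries in the markers that blocked its name. Its 8 parietal markers summed to 909 CPM in the male, 1716 in the female ERaKO and 1265 in the female library, and its 8 proximal tubule markers to 8512, 3376 and 4860 CPM. The male cells were thus lowest in parietal and highest in tubule markers. Phagocyte markers summed to 53.4, 32.5 and 30.8 CPM there, with C1qa, C1qb and C1qc at 0 in all 3 libraries. The part of these markers in the Ccl2 difference was not tested. Of 10 ligands measured in cluster 10, 3 were at least 2-fold lower in male than in female cells (Ccl2, Ccl7 and Ccl5), where 4.30% of all genes were, and none was higher (3.68% of all genes). In female ERaKO over female, 2 were at least 2-fold higher (Cxcl2 and Ccl2), where 2.91% of all genes were, and Ccl5 was lower (2.11% of all genes). In the female library the top cell of cluster 10 for each ligand held 77 of the 82 Ccl5, 27 of the 32 Ccl7 and 167 of the 336 Ccl2 UMIs. The top cells for these 3 ligands had the same total depth of 31150 UMIs. The 3 ligands lower in male cells may thus share 1 female cell and are not separate observations.

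**Figure D2:**
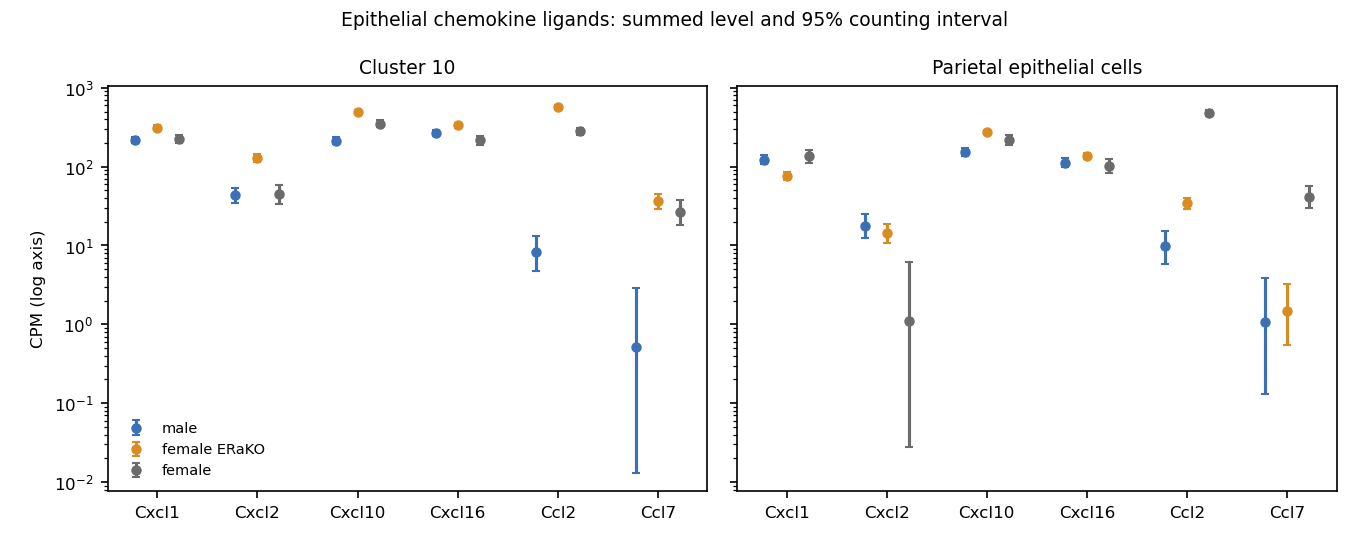
CPM (log axis) of the 6 epithelial ligands in cluster 10 (left) and parietal epithelial cells (right) of the male, female ERaKO and female libraries; points are sums over the cells of 1 library and bars are exact 95% Poisson intervals. In cluster 10 Ccl2 stands at 8.22 CPM in the male, 575 in the female ERaKO and 279 in the female library, while Cxcl1 and Cxcl16 lie close together.

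Parietal epithelial cells had most Ccl2 in the female library, and nearly all of it lay in 1 cell. They held 18 UMIs in 120 male, 139 in 208 female ERaKO and 436 in 73 female cells, or 9.77, 34.2 and 479 CPM. A cell with 8372 UMIs in all held 431 of the 436 female UMIs, and the top female cells for Ccl7 (37 of 38 UMIs) and Ccl5 (34 of 34) had the same total depth. The log2 ratios were -5.48 (-6.38 to -4.94) for male over female and -3.77 (-4.09 to -3.53) for female ERaKO over female. Without each library's top cell they were -0.14 and 1.94, so the direction for female ERaKO turned round. By cells, Ccl2 was found in 3 male, 14 female ERaKO and 3 female parietal cells.

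**Figure D3:**
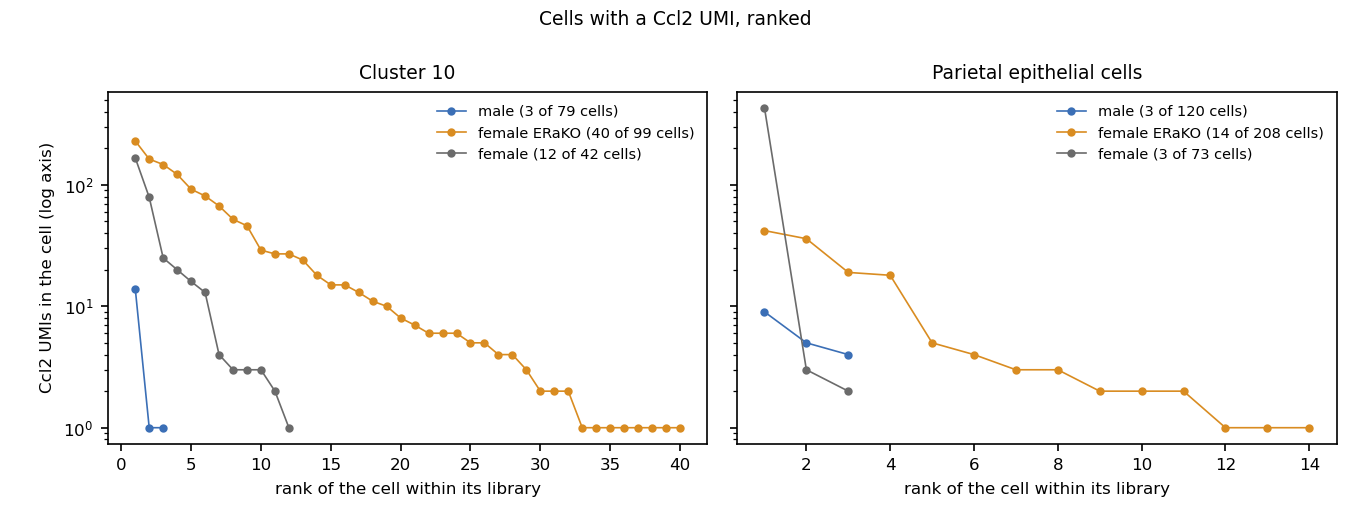
Ccl2 UMIs per cell (log axis) against the rank of the cell in its library, for cells with at least 1 UMI in cluster 10 (left) and among parietal epithelial cells (right). In cluster 10 female ERaKO cells form a long slope of 40 cells, against 3 male and 12 female cells; the female parietal total rests on 1 cell with 431 UMIs.

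Cxcl2, which like Cxcl1 acts on the neutrophil receptor Cxcr2, had 84 UMIs in male, 279 in female ERaKO and 54 in female cells of cluster 10, or 43.1, 128 and 44.9 CPM. It was found in 9, 27 and 4 cells. The log2 ratio was 1.49 (1.08 to 1.96) for female ERaKO over female, 2.32 without each library's top cell and 0.84, under 2-fold, in the matching cluster at the finer clustering, while it was -0.06 (-0.57 to 0.46) for male over female. In parietal cells it had 33, 58 and 1 UMIs. Of 10 ligands measured in parietal cells, Cxcl2 alone was at least 2-fold higher in male than in female cells (3.97% of all genes) and in female ERaKO than in female cells (4.32% of all genes), and 3 were lower in each (Ccl2, Ccl7 and Ccl5; 1.33% and 1.60% of all genes), none of which was still 2-fold lower without each library's top cell. With each cell classed by its own marker score, the Cxcl2 ratio in parietal cells was reversed for male over female (-1.02) and under 2-fold for female ERaKO over female (0.64).

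Among the NF-kB regulators, Nfkbia, the inhibitor that NF-kB itself induces, had 1938 UMIs in male, 2823 in female ERaKO and 521 in female cells of cluster 10, or 995, 1292 and 433 CPM. Of 11 NF-kB regulators measured there, only Nfkbia was at least 2-fold higher (3.68% of all genes) and only Nfkb2 lower (4.30%) in male than in female cells. The median log2 ratio of the list was -0.14, against -0.06 over all genes. In female ERaKO over female, only Nfkbia was higher (2.91% of all genes) and none was lower (2.11%), with a median of 0.21, against 0.02. Of 14 immediate early genes, which tissue dissociation can induce, none was 2-fold apart in either comparison, with medians of -0.06 and 0.05. The adhesion molecule Vcam1, also a parietal marker, stood at 193, 565 and 292 CPM, with log2 ratios under 2-fold.

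Mononuclear phagocytes numbered 91 male, 54 female ERaKO and 70 female cells. Ccl6 and Ccl9, CC ligands of mouse myeloid cells, were nearly confined to them, with 96.2% and 96.7% of their UMIs there. Ccl6 had 501, 241 and 316 UMIs, or 757, 611 and 486 CPM, and was found in 80 male, 39 female ERaKO and 56 female phagocytes. Among podocytes, 1 cell in each library held Ccl6 (0.0765%, 0.110% and 0.0658% of male, female ERaKO and female podocytes, at median depths of 7739, 7378 and 9184 UMIs, against 6496, 6453.5 and 8524.5 in phagocytes), the background share for this ligand. Ccl9 had 315, 134 and 191 UMIs, or 476, 340 and 294 CPM. Both were highest in the male library, with log2 ratios over female of 0.64 (0.43 to 0.85) for Ccl6 and 0.69 (0.43 to 0.96) for Ccl9, where the median of all genes was -0.14.

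Ccl3 and Ccl4, CC ligands of activated macrophages and lymphocytes, and Cxcl2 were highest in the female phagocytes. Ccl4 had 240 UMIs in male, 210 in female ERaKO and 818 in female phagocytes, or 363, 533 and 1258 CPM, with log2 ratios of -1.79 (-2.01 to -1.59) for male over female and -1.24 (-1.47 to -1.02) for female ERaKO over female. Ccl3 had 140, 113 and 266 UMIs, or 212, 287 and 409 CPM, and both of its ratios were under 2-fold. Cxcl2 had 372, 122 and 516 UMIs, or 562, 310 and 794 CPM, with ratios of -0.50 (-0.69 to -0.30) and -1.36 (-1.66 to -1.07). The top cell of a library held 16.5% to 32.0% of these UMIs. Without each library's top cell Ccl4 and Cxcl2 were still at least 2-fold lower in female ERaKO, and Ccl4 in male phagocytes.

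Of 14 ligands measured in phagocytes, 4 were at least 2-fold higher (Cxcl9, Ccl22, Ccl17 and Ccl5; 1.85% of all genes) and 3 lower (Ccl7, Ccl12 and Ccl4; 7.91%) in male than in female cells. Of 11 measured in female ERaKO over female, Ccl5 was higher (3.16%) and 5 were lower (5.01% of all genes; Cxcl2, Cxcl10, Ccl7, Ccl12 and Ccl4). Several of these rested on 1 or a few cells. Ccl17, a ligand of Ccr4, had 164 UMIs in 3 of 91 male phagocytes (3.30%), against none in 54 female ERaKO and none in 70 female cells. Counts of 0 allow a share of cells with a UMI of up to 5.56% and 4.29% there, above the male share, so a difference in the share of cells was not detectable at this depth. By summed UMIs the male level was 53.7-fold that of the female floor of 3 UMIs for the class. This is not a lower bound on a difference, because the male UMIs lay almost wholly in 2 cells. A cell of 15097 UMIs held 126 of the Ccl17 UMIs, 18 of the 20 of Ccl22, another Ccr4 ligand, and 28 of the 100 of Cxcl9. A cell of 12570 UMIs held 37 of Ccl17 and the other 72 of Cxcl9. Ccl12 and Ccl7 each had 24 UMIs in 1 female phagocyte.

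The phagocyte class was not the same mix in each library. Its own markers summed to 14791, 12726 and 12338 CPM in the male, female ERaKO and female libraries. Neutrophil markers summed to 27.2, 66.0 and 238 CPM, with 2, 3 and 6 of 6 detected, and S100a8 and S100a9 at 0 in male cells. B lymphocyte markers summed to 6790, 500 and 340 CPM, with Ms4a1 at 0 in the male cells. The part of these markers in the ligand differences was not tested. Il1b, a cytokine that induces several of these ligands, stood at 1549, 1043 and 1666 CPM, and of 6 inducing cytokines and receptors measured in phagocytes none was 2-fold apart in either comparison.

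Lymphocytes numbered 41 male, 25 female ERaKO and 38 female cells, so only male and female could be compared. Ccl5, a CC ligand stored by cytotoxic T and NK cells, had 461, 677 and 789 UMIs, or 2033, 3228 and 2622 CPM, in 9, 8 and 16 cells. The male over female log2 ratio was -0.37 (-0.54 to -0.20). Cells with Ncr1 or Klrb1c and no Cd3 gene held 48 of its UMIs in the male (1 cell), 318 in the female ERaKO (4 cells) and 470 in the female library (5 cells), and cells with Cd3 genes only held 413, 312 and 221. Cd3-only cells thus held more of it in the male and fewer in the female library. Most Ccl4 lay in cells with NK markers: 57 of the 70 female ERaKO UMIs lay in 4 cells with Ncr1 or Klrb1c only, and 1 in 20 cells with Cd3 genes only. Xcl1, a ligand of Xcr1 on dendritic cells, had 16, 63 and 45 UMIs, but 60 of the 63 came from 1 female ERaKO cell. Of 4 ligands measured, Xcl1 and Ccl4 were at least 2-fold lower in male lymphocytes, where 10.8% of all genes were, and none was higher (2.75%). Cells with Ncr1 or Klrb1c numbered 1 in the male library, which held 21 of its 26 Ccl4 UMIs, against 5 without and 1 with Cd3 genes in the female one, and their part in these differences was not tested. With scaling by the median of ratios the Xcl1 ratio was -0.90, under 2-fold.

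Outside lymphocytes Ccl5 came mostly from scattered cells. A male proximal tubule cell held all 81 of its UMIs in that class, a cell of cluster 10 held 77 of the 82 female UMIs there, and a female ERaKO endothelial cell held 60 of 69. That endothelial cell, of 30617 UMIs, also had 46 of the 48 Ccl4 UMIs of its class. The part of joined cells and of free RNA in these counts was not tested.

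Cxcl13, the B cell attractant that acts on Cxcr5 (ENSMUSG00000023078, chromosome 5, 95956951 to 95961068, plus strand, GRCm38), belonged to mesangial cells, the contractile cells that hold the capillary loops, which held 95.3% of its UMIs. It had 891 UMIs in 193 male, 968 in 152 female ERaKO and 157 in 51 female mesangial cells, or 642 (600 to 685), 569 (534 to 607) and 296 (252 to 346) CPM. Both the male and the female ERaKO level lay above the female interval, which covers counting error in 1 mouse only. The log2 ratio was 1.11 (0.87 to 1.37) for male over female and 0.94 (0.70 to 1.20) for female ERaKO over female, which is short of 2-fold. It was the 1 of 7 ligands measured in mesangial cells that was at least 2-fold higher in male cells, where 2.78% of all genes were (3.36% lower), and at the finer clustering its ratio was 0.82, and with called doublets kept 0.99. In female ERaKO over female, none of the 7 was 2-fold apart, where 3.85% of all genes were higher and 1.63% lower. It was found in 72 male (37.3%), 81 female ERaKO (53.3%) and 21 female mesangial cells (41.2%), so by share of cells the male library was lowest. The top cell held 29.5%, 26.4% and 24.2% of the UMIs. Mesangial markers summed to 11341, 9920 and 9896 CPM, with 7 of 7 detected in each library. Over 34 class and library means, the genes whose pattern was most like it were Nrxn3 (Pearson r 0.92), D430036J16Rik (0.92) and Zfp804a (0.92).

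Cx3cl1, the membrane-tethered ligand of Cx3cr1, had 383 UMIs in 779 male, 242 in 500 female ERaKO and 425 in 687 female endothelial cells, or 59.1, 47.3 and 61.2 CPM. Parietal cells stood at 35.8, 30.8 and 46.1 CPM. The endothelial log2 ratios were -0.05 (-0.25 to 0.15) and -0.36 (-0.60 to -0.14), both within 2-fold. The sheddases that release it, Adam10 and Adam17, were likewise within 2-fold in endothelial cells. Cxcl10 differed more there, with 72, 39 and 177 UMIs, or 11.1, 7.63 and 25.5 CPM, and log2 ratios of -1.13 (-1.61 to -0.79) and -1.62 (-2.28 to -1.23). The share of cells with it differed less, at 3.34%, 3.80% and 4.37% (26, 19 and 30 cells), and 1 cell held 23.2% of the female Cxcl10 UMIs. It was the 1 of 7 ligands at least 2-fold lower in male endothelial cells (0.91% of all genes; 0.826% higher) and the 1 of 9 lower in female ERaKO ones (1.11%), where Ccl5 and Ccl4 were higher (1.12%), most of their UMIs lying in the cell of 30617 UMIs above. Without each library's top cell Ccl5 was still 2-fold higher (log2 ratio 1.27) and Ccl4 was not (0.48). With each cell classed by its own marker score, the endothelial Cxcl10 ratios were -0.83 and -0.99, short of 2-fold.

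Podocytes, the filter's epithelial cells, held few ligand UMIs for their number. Ccl27a, a ligand of Ccr10, had 345, 210 and 560 UMIs in male, female ERaKO and female podocytes, or 28.9, 25.5 and 31.7 CPM, and parietal cells stood at 34.7 to 51.6 CPM, highest in the female library. Ccl25, a ligand of Ccr9, had 133, 83 and 190 UMIs, or 11.1, 10.1 and 10.7 CPM, close to its endothelial level of 11.6, 15.8 and 11.8 CPM. Neither differed by 2-fold in podocytes. Cxcl10 had 75, 68 and 335 UMIs there, with log2 ratios of -1.45 (-1.97 to -1.23) and -1.10 (-1.59 to -0.82), but 45.7% of the female UMIs lay in 1 cell, and without each library's top cell the ratios were -0.95 and -0.80. Cxcl10 was found in 1.83% of male, 2.32% of female ERaKO and 2.04% of female podocytes. It was the 1 of 6 measured that was lower in male podocytes (0.395% of all genes) and the 1 of 7 lower in female ERaKO ones (0.761%), where Cxcl13 was higher (1.85%), with 28 of its 49 UMIs in 1 cell of 69115 UMIs.

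Ccl28, a mucosal CC ligand of Ccr10 and Ccr3, was a tubular transcript in these preparations: proximal tubule cells, present although the samples are labelled glomerular, held 89.0% of its UMIs. It had 37 UMIs in 96 male, 50 in 177 female ERaKO and 204 in 85 female tubule cells, or 28.9, 17.2 and 122 CPM, with log2 ratios of -2.04 (-2.63 to -1.57) and -2.76 (-3.31 to -2.38). The tubule class was made of different clusters in the libraries: cluster 21 held 95 of the male cells, while clusters 15 and 16 held 89 and 86 of the female ERaKO and 44 and 39 of the female cells. Within cluster 16, Ccl28 had 50 UMIs in female ERaKO and 199 in female cells, or 25.3 and 203 CPM, a log2 ratio of -2.95 (-3.48 to -2.55), and it was found in 14 of 86 and 23 of 39 cells. Of 5 ligands measured in the tubule class, Ccl28 was lower in male cells (6.67% of all genes) and Cxcl1 and Ccl5 were higher (6.11%), neither of them still 2-fold higher without each library's top cell (0.93 for Cxcl1, with 65.0% of its 20 male UMIs in 1 cell), while Ccl28 and Ccl25 were lower in female ERaKO cells (3.51%) and none was higher (2.4%).

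Fibroblasts, a small class of 43 male, 44 female ERaKO and 30 female cells, had 5 of 8 measured ligands at least 2-fold higher in female ERaKO than in female cells (6.61% of all genes) and 1 lower (2.74%), each on 38 UMIs or fewer in either library. A cell of 7028 UMIs held all 21 female ERaKO UMIs of Ccl2 and 27 of the 28 of Ccl7. Of 4 measured in male over female, Cxcl16 and Cxcl14 were higher (6.42%) and none was lower (2.64%), with all 58 male UMIs of Cxcl14, an epithelial and stromal CXC ligand, in 1 cell. In smooth muscle and renin cells Cxcl1 was lower in male (1 of 3 measured; 1.75% of all genes, and 1.86% higher) and in female ERaKO cells (1 of 4; 2.92%), where Cxcl10 was higher (2.14%) on 17 UMIs, against 4, with 88.2% of the 17 in 1 cell and a ratio of -0.28 without each library's top cell. Of the 14 immediate early genes, 6 were at least 2-fold lower in female ERaKO smooth muscle and renin cells (2.92% of all genes) and none was higher (2.14%). Their median log2 ratio was -0.97, against -0.07 over all genes. For male over female none of the 14 was 2-fold apart there (median -0.09). The part of dissociation in the Cxcl1 differences was not tested. Among intercalated cells, 2 of 6 (Cxcl1 and Cx3cl1) were lower in male than in female cells (3.61% of all genes) and none was higher (2.36%).

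The matching receptors were mostly on leukocytes. Ccr2, the receptor of Ccl2 and Ccl7, had 93.7% of its 779 UMIs in phagocytes, at 414, 378 and 472 CPM, and Cx3cr1, the receptor of Cx3cl1, had 97.5% of its 200, at 101, 96.4 and 138 CPM. Of 17 chemokine receptors, 5 could be measured in phagocytes for male over female, with Ccr7 higher (1.85% of all genes) and none lower (7.91%), and 6 for female ERaKO over female, with Ccr9 higher (29 UMIs, against 2; 3.16% of all genes) and none lower (5.01%). Cxcr2, the receptor of Cxcl1 and Cxcl2, had 37 UMIs in all kept cells and Cxcr5, the receptor of Cxcl13, had 4. Ccr10, the receptor of Ccl27a and Ccl28, had 44.3% of its 70 UMIs in cluster 10, where it stood at 15.9 CPM in male cells and had no UMI in female ERaKO or female ones. Ackr2, which takes up and degrades CC ligands, had 94.9% of its 350 UMIs in endothelial cells and stood at 11.7, 15.8 and 25.2 CPM, so it was at least 2-fold lower in male than in female endothelium (log2 ratio -1.04).

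**Figure D4:**
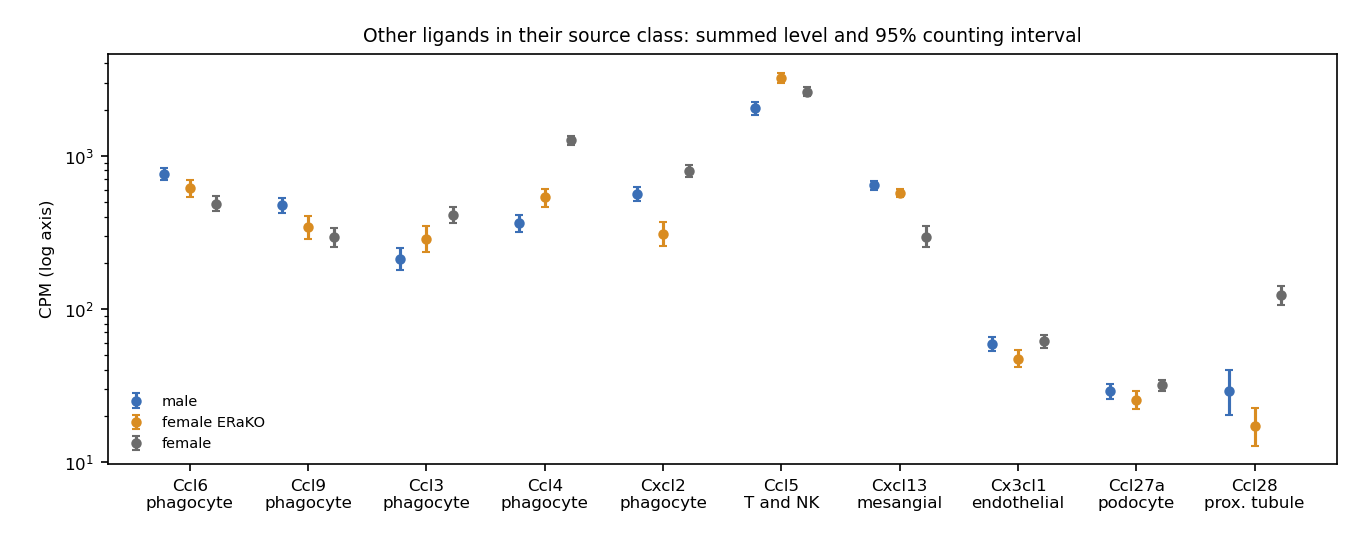
CPM (log axis) of 10 ligands in their source class in the male, female ERaKO and female libraries; points are sums over the cells of 1 library and bars are exact 95% Poisson intervals. Ccl4 reaches 1258 CPM in female phagocytes, against 363 in male and 533 in female ERaKO ones, while Cxcl13 in mesangial cells is lowest in the female library at 296 CPM.

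Over all classes, 76 pairs of a ligand and a class could be compared between male and female, of which 10 were at least 2-fold higher and 17 lower, where 2.73% and 3.24% of all gene and class pairs were. Between female ERaKO and female 71 pairs could be compared, of which 13 were higher and 15 lower, where 2.88% and 2.15% of all pairs were. Without each library's top cell, 17 of the 27 male pairs and 18 of the 28 female ERaKO pairs were still at least 2-fold apart in the same direction on the scale of CPM plus 1, and 4 of the female ERaKO pairs changed sign.

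**Figure D5:**
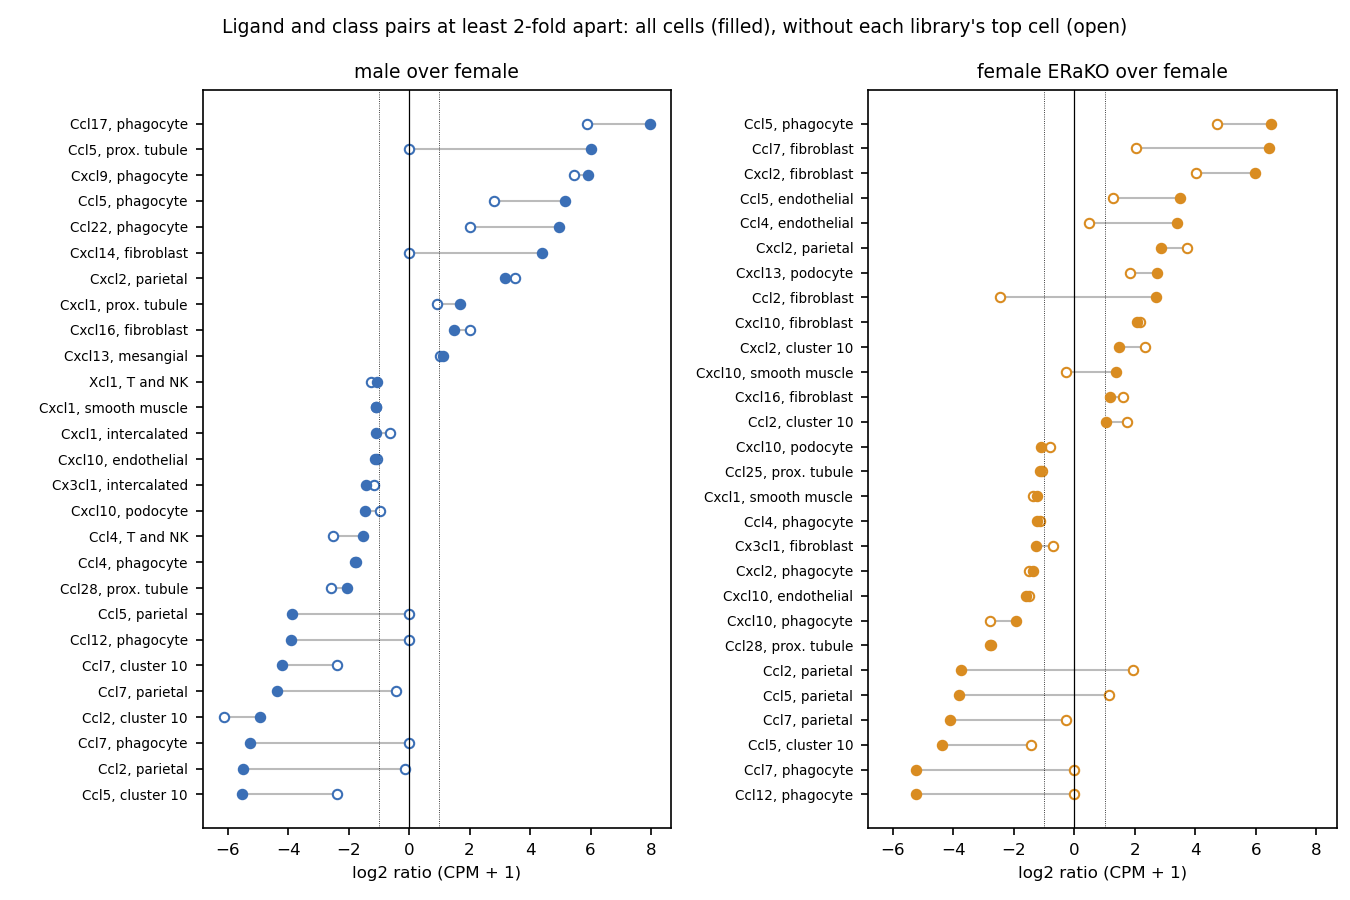
Log2 ratio of CPM plus 1 for each ligand and class pair at least 2-fold apart, male over female (left) and female ERaKO over female (right), with all cells (filled) and without each library's top cell for that ligand (open); dotted lines mark 2-fold. Ccl2 in parietal cells moves to -0.14 and 1.94, while Ccl4 and Cxcl2 in phagocytes of female ERaKO mice hardly move.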

How the data were processed

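Droplet 3′ libraries of glomerular cells from 3 mice were read as the authors deposited them, as raw UMI counts per gene and cell in barcode lists whose lowest total was 4284 UMIs. The submitters' processing notes name mm10 as genome, with STAR 2.7.5a and Cell Ranger 6.1.2 as tools. Gene positions came from GENCODE M21 of GRCm38. The kit's strand setting is not given in the sources used here. The members, gene lists and markers were chosen with earlier results of these data known.

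Barcodes with under 500 genes or over 25% mitochondrial UMIs were removed. Doublet scores came from Scrublet in scanpy 1.11.5. Its own threshold marked 93, 149 and 4 cells of the male, female ERaKO and female libraries and so had failed in the last, so cells scoring above 0.2 were removed everywhere (109, 93 and 72), a value chosen with those calls known. The remaining 8572 cells were scaled to 10000 UMIs, log-transformed and clustered (Leiden, resolution 1, 15 neighbours, 30 components, 2000 variable genes; leidenalg 0.10.2, igraph 0.11.9) without chemokine ligand, mitochondrial and sex chromosome genes. Of 26 clusters, 25 took the name of 1 of 19 marker lists if their mean log2 score was at least 0.6 and led the next by 0.75, at least 3 markers were 2-fold up and no other class led their 10 top genes. Erythroid markers counted only at 10% of a cluster's UMIs. The minima were chosen with the clusters in view.

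Counts were summed per class and library. A contrast needed 30 cells in each library and 20 summed UMIs, and log2 ratios carry a pseudocount of 1 CPM. Intervals are exact conditional Poisson (ratios), exact Poisson (CPM) and Clopper-Pearson (shares), at 95%. Only the ratio interval was run on simulated data, which were drawn as Poisson counts. Ligand counts that lie mostly in 1 cell are more uneven than that, so the run does not test coverage for them. Where a library had 0 UMIs the floor is 3 UMIs per class and library. Members with at least 100 UMIs are described on their own, and those past 2-fold are named. Kept UMIs came to 31647887 in the male, 28834446 in the female ERaKO and 33678092 in the female library. Alternatives changed the mitochondrial limit, doublet removal, resolution, class rule, top cell, scaling, pseudocount and count minimum. Versions were matplotlib 3.10.9, scikit-learn 1.9.0, scipy 1.17.1, Python 3.11.15, pandas 2.3.3 and numpy 2.4.6.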

Additional observations from a re-analysis of the deposited data

Results flagged for a closer look

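Some ligands moved in opposite directions in different classes of the same comparison, each at least 2-fold on the scale of CPM plus 1, also without each library's top cell; with 1 library a group the difference between classes was not tested. For female ERaKO over female, Ccl5 had log2 ratios of 3.49 in endothelial cells and 6.49 in phagocytes, against -4.39 in cluster 10. Cxcl10 stood at 2.07 in fibroblasts, against -1.62 in endothelial cells and -1.94 in phagocytes. Cxcl2 stood at 5.96 in fibroblasts, 2.87 in parietal cells and 1.49 in cluster 10, against -1.36 in phagocytes. For male over female, Ccl5 stood at 5.16 in phagocytes, against -5.51 in cluster 10. The female library had no UMI of Ccl5 in phagocytes or of Cxcl2 in fibroblasts, so those fitted values depend on the pseudocount. Set against the floor of 3 UMIs per class and library, Ccl5 was 19.2-fold higher in female ERaKO and 7.53-fold higher in male phagocytes. Cxcl2 was 4.55-fold higher in female ERaKO fibroblasts. These folds count UMIs that lay mostly in 1 cell, so they are not lower bounds on a difference. A single cell held 19 of the 23 male Ccl5 UMIs in phagocytes and 15 of the 20 female ERaKO Cxcl2 UMIs in fibroblasts, so without it the 2-fold of these values rests on the pseudocount alone. Of the 35 female ERaKO Ccl5 UMIs in phagocytes, 25 lay in 1 cell. Cxcl10 had 9 female ERaKO against 59 female UMIs in phagocytes, with 77.8% and 54.2% in the top cell. In fibroblasts it had 38 against 6, with 44.7% and 50% in the top cell, and was found in 11.4% and 13.3% of cells. Likewise 1 cell held 77 of the 82 female Ccl5 UMIs in cluster 10, and 1 held 60 of the 69 female ERaKO ones in endothelial cells. Without top cells Ccl5 stood at -1.43 (female ERaKO) and -2.37 (male) in cluster 10 and 1.27 in endothelial cells. Each of these rests on fewer than the 20 UMIs that a contrast needed.

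Barcodes removed by the filters, which enter no comparison, held 1170 ligand UMIs in the male, 1522 in the female ERaKO and 1117 in the female library, or 11.7%, 11.2% and 10.7% of all ligand UMIs.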

How the results depend on the processing

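The source class was unchanged for 13 to 19 of the 19 ligands. With each cell classed by its own marker score, Cxcl1, Cxcl10, Cxcl16, Ccl2 and Ccl7 had parietal cells as their source and Cxcl9 dendritic cells; at most 10% mitochondrial UMIs moved Ccl28 to podocytes. The count of pairs at least 2-fold apart depended more on the setting. Male over female had 11 lower pairs at 10% mitochondrial UMIs, and 5 higher and 10 lower with at least 50 summed counts. Female ERaKO over female had 6 higher with doublets kept, 6 at resolution 2, 3 higher and 7 lower by each cell's own score, 9 lower without the top cell and 5 higher with at least 50 summed counts. Fewer pairs could be measured under several of these settings; other causes were not tested. Over the 55 called pairs, 295 of 355 alternative values lay within the counting interval of the value reported, widened to hold that value where the pseudocount put it outside, 55 lay beyond it with the same sign or at 0, and 5 were reversed. Reversed were Cxcl2 in parietal cells by each cell's own score for male over female (-1.02) and, without the top cell, female ERaKO over female for Ccl2 in fibroblasts (-2.46), Ccl2 in parietal cells (1.94), Ccl5 in parietal cells (1.16) and Cxcl10 in smooth muscle and renin cells (-0.28). No paired analysis was possible because each group is 1 library. Depth limits Esr1 and the ligands with under 20 UMIs, for which no difference was detectable.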
